A study of Mus musculus with 10 samples.

Results

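The WNT ligands described here are 10 genes of the mouse WNT family, Wnt3a, Wnt4, Wnt5a, Wnt5b, Wnt6, Wnt7a, Wnt7b, Wnt9a, Wnt10a and Wnt10b. They were chosen by gene symbol, and all 10 were found among the 53167 genes of the count table. RNA came from wild-type primary epithelial cells of the mouse mammary gland, grown in DMEM with 10% FBS and 1% penicillin/streptomycin. Biglycan, a matrix proteoglycan with leucine-rich repeats, was given as protein at 100 ng/mL to the 5 samples of the BGN group, and the 5 samples of the Control group received none. The labels give neither the age or strain of the mice nor the time in culture or of exposure, and they do not say whether replicates were separate animals or cultures. The p-values and intervals therefore cover only how these samples spread, and that spread may be technical. The series names activation of WNT signalling as its subject, and the comparison asks here whether the cells' own WNT transcripts differed with added biglycan.

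WNT proteins are secreted glycoproteins that are acylated by Porcupine in the endoplasmic reticulum and carried to the surface by Wntless. Some bind Frizzled together with LRP5 or LRP6 and stabilise beta-catenin, for which WNT3A is the usual laboratory example, while WNT5A and WNT5B are best known for beta-catenin-independent signalling through receptors such as ROR1 and ROR2. In the mammary gland WNT4 acts downstream of progesterone in ductal side-branching, WNT5A restrains ductal growth, and Wnt10b is an early marker of the mammary placode. Both Wnt1 and Wnt10b are known sites of mouse mammary tumour virus insertion.

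Within these 10 ligands lie pairs of direct neighbours on a chromosome, with no other protein-coding gene between them, in which reads fell almost wholly on a single gene. Wnt9a had 1132 reads over the 10 libraries and its neighbour Wnt3a had 0. Wnt10a had 2708 and its neighbour Wnt6 had 40. Wnt10b had 969, and its neighbour Wnt1, which is not among the 10, had 1. In the other such pair of the family, Wnt3 and Wnt9b, the totals were 0 and 17 reads.

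The sequences just before the annotated starts are shown for the 2 pairs that hold any of the 10 ligands and have a RefSeq entry (GRCm38.p6) on each side, and for Wnt5b, the ligand with the most reads. Each run is the 250 bases before the start, read 5′ to 3′ on the gene's strand, with every CpG dinucleotide in capitals. Wnt3a lies at chr11:59290752-59291001 (minus strand), Wnt9a at chr11:59306680-59306929 (plus), Wnt10b at chr15:98778151-98778400 (minus), Wnt1 at chr15:98789607-98789856 (plus) and the farthest upstream of the 3 listed starts of Wnt5b at chr6:119544348-119544597 (minus).
Wnt3a: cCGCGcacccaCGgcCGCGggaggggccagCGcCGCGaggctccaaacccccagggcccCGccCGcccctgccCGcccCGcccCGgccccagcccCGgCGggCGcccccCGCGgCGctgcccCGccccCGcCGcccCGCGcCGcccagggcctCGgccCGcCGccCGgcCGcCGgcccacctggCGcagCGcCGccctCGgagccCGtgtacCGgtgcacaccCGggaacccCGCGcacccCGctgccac
Wnt9a: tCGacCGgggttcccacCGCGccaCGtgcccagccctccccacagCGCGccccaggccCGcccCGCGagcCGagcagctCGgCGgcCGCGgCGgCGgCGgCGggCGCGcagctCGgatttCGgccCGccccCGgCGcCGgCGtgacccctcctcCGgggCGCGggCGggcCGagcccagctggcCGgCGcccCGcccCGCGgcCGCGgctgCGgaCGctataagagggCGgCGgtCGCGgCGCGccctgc
Wnt10b: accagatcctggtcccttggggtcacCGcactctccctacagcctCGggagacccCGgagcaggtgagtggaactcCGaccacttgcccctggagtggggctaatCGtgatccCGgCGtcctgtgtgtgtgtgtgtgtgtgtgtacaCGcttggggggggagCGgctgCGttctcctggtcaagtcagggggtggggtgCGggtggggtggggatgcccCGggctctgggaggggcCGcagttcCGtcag
Wnt1: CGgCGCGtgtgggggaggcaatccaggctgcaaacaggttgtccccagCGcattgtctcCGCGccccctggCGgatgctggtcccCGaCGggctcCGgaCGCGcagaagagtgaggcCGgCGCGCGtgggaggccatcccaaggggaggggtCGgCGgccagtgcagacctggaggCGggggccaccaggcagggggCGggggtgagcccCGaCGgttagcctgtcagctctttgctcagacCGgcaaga
Wnt5b: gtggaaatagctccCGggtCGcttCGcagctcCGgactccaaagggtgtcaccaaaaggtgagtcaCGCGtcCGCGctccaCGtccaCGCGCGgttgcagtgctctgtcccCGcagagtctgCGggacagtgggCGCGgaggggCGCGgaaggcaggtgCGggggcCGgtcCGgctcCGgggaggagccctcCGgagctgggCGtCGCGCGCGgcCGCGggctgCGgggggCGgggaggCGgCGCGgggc
Wnt3a, with no reads, and its expressed neighbour Wnt9a had 41 and 48 CpG in this window, against a median of 6 over 32851 promoters of the same length. In the other pair Wnt1, with 1 read, had 23 CpG and Wnt10b, with 969, had 14. Wnt9b and Wnt3, neither of them among the 10, had 22 CpG each. Over these 3 pairs the gene with more reads had more CpG in 1, fewer in 1 and the same number in 1. The farthest upstream start of Wnt5b had 35 CpG and the other 2 listed starts had 4 and 7; gene counts do not say which start was used. The motif TATAAA, searched on both strands, was in 0 of the 9 windows of these 10 ligands that could be read (7 genes had an entry; Wnt5a, Wnt7b and Wnt10a had none) and in 12.4% of all promoters. The TCF/LEF-type motif CTTTGAT, on both strands, was in 1 of the 9, the start of Wnt5b with 7 CpG, and in 3.21% of all promoters. A match is a run of letters and not a known site.

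The coding sequences of these relatives share only short identical stretches. Over the 45 pairs of the 10 ligands the longest identical run was 10 to 29 bases, and coding identity ranged from 51.0% to 75.9%. The closest pairs were Wnt5a with Wnt5b, at 75.9% identity, and Wnt7a with Wnt7b, at 74.9%. Their longest shared runs, from GENCODE M21 transcripts, are the longest stretches that a coding read could match in both genes without a mismatch.
Wnt5a and Wnt5b: atggacggctgcgagctcatgtgctgtgg
Wnt7a and Wnt7b: ggtgtgtcaggctcctgtaccac
The strand setting of the counting is not given in the sources used here. An antisense gene overlaps 4.58% of the exon bases of Wnt5a (Gm2670, 0 to 6 reads per library) and another 6.61% of those of Wnt7b (AU022754, 14 to 34 reads). Whether reads there were told apart by strand is not known.

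Wnt5b was the most abundant ligand transcript per length. Levels between genes are given as CPM (read counts relative to the TMM-scaled library size) per kb of annotated exon, as mean ± SD over the 10 libraries. Wnt5b stood at 37.1 ± 3.41 and was followed by Wnt7b at 11.6 ± 0.607, Wnt10a at 5.58 ± 0.325, Wnt4 at 4.10 ± 0.253 and Wnt5a at 3.39 ± 0.300. Wnt9a was at 1.74 ± 0.310 and Wnt10b at 1.45 ± 0.147, while Wnt6 was at 0.0931 ± 0.0434 and Wnt7a at 0.00945 ± 0.0170. From Wnt5b down to Wnt9a, the ranges of neighbours in this order over the 10 libraries did not overlap. Wnt9a and Wnt10b overlapped, with Wnt9a the higher in 7 of 10 libraries, so their order is not beyond their spread, and it turned when the longest or the median annotated transcript served as the length. With the median transcript length Wnt5a also passed Wnt4. Wnt5b stayed first and Wnt7b second with each of these lengths.

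**Figure D1:**
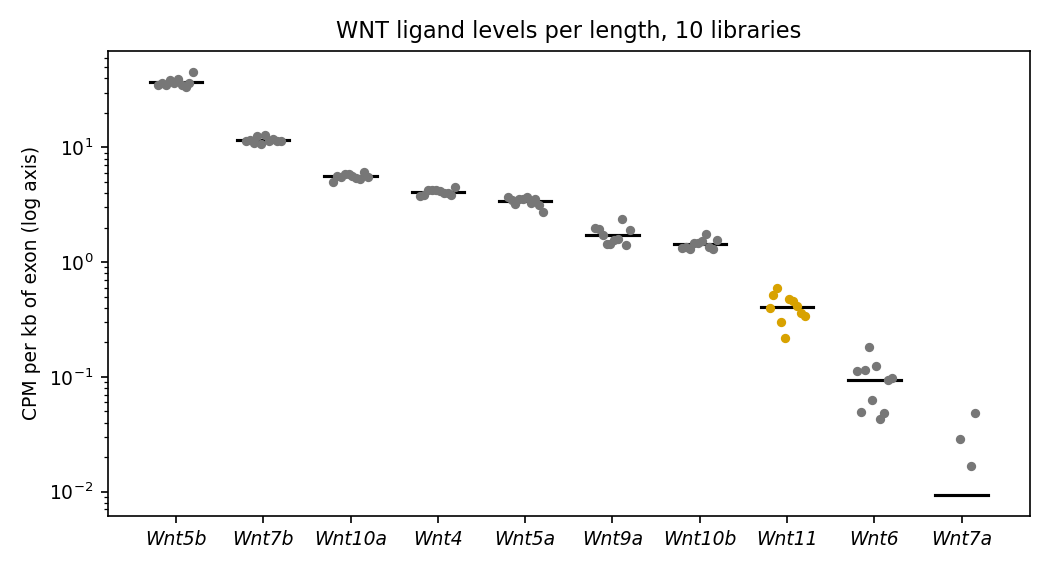
CPM per kb of exon (log axis) for WNT ligands in the 10 libraries, ordered by level; points are libraries, the black line is the mean, and Wnt11, in yellow, is not among the 10 ligands described. Libraries with 0 reads, including all 10 of Wnt3a and 7 of Wnt7a, cannot be drawn on this axis; Wnt5b lies above Wnt7b in every library.

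Wnt5b and Wnt7b together made up 72.5% to 77.1% of the summed level per kb of all 19 WNT ligands, depending on the library. Wnt5b alone gave 53.6% to 61.7%. Outside the 10 ligands, Wnt11, a ligand linked to beta-catenin-independent signalling, was the only one of 9 with enough reads to be tested, at 20 to 48 reads per library and 0.406 ± 0.108 CPM per kb. Wnt2b had 4 to 12 reads per library. Wnt8a, Wnt8b, Wnt9b and Wnt16 had totals of 2, 11, 17 and 12 reads over the 10 libraries, Wnt1 had 1, and Wnt2 and Wnt3 had 0.

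The cells carried the markers their label calls for. Luminal markers (10 genes) summed to 4877 to 5113 CPM in BGN and 4963 to 5586 CPM in Control, and basal markers (9 genes) to 5425 to 5698 and 5364 to 6628 CPM, scaled by library totals alone. Genes of the contractile state within the basal list were uneven: Oxtr, the oxytocin receptor gene, stood at 166 ± 8.55 CPM and Acta2, smooth muscle actin, at 27.7 ± 3.29 CPM over the 10 libraries, while Myh11 and Cnn1 had mean counts of 4.00 and 5.30 per library; Acta2, Myh11 and Cnn1 were picked after their values were seen. Fibroblast markers (10 genes) summed to 46.4 to 52.7 CPM in BGN and 40.6 to 59.8 CPM in Control, most of it from Pdgfra at 38.8 ± 4.84 CPM, with Dpt at 0 in all libraries. Endothelial, myeloid and adipocyte markers (6, 6 and 5 genes) each summed to at most 6.07, 4.25 and 1.41 CPM per library. Fewer cells that make a ligand and less of its RNA per cell cannot be told apart in bulk samples. Library totals were 18292624 to 21820560 reads, and the 10 ligands together received 4045 to 4824 of them.

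Of the 10 ligands 7 had enough reads to be tested, and none of these differed between BGN and Control beyond the spread of the replicates. In edgeR's quasi-likelihood test 0 of the 7 passed an adjusted p under 0.05, with adjusted p-values of 0.963 to 0.996. Wnt3a had no reads to compare, and Wnt6 and Wnt7a had too few for this test. DESeq2 and limma-voom called 0 of the 7 as well, and 0 had an unadjusted p under 0.05 in edgeR. The background was the same: over all 14415 genes tested 0 were called higher and 0 lower (0% in each direction), and 694 (4.81%) had an unadjusted p under 0.05, against 662 by DESeq2 and 801 by limma-voom. The groups overlapped for all 7 ligands, and they failed to overlap for 0.728% of all genes tested. Of the 7 estimates 1 lay above 0 and 6 below, with a median log2 fold change (BGN over Control) of -0.043, beside a median of -0.0040 over all genes tested, of which 6921 lay above and 7494 below 0.

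**Figure D2:**
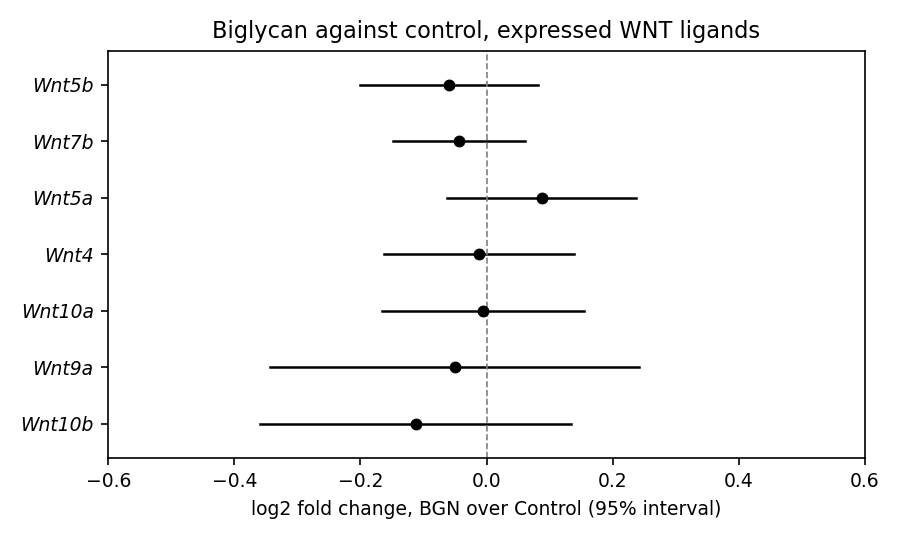
Log2 fold change of BGN over Control for the 7 tested WNT ligands, with 95% intervals from the edgeR fit. Every interval spans 0 (dashed line), and those of Wnt9a and Wnt10b are the widest.

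The intervals rest on the same spread as the p-values and bound how large a difference these samples leave room for. For 5 of the 7 ligands (71.4%) the whole 95% interval lay within 1.25-fold in either direction, and for 7 of 7 within 1.5-fold. Over all genes tested 69.5% lay within 1.25-fold, and 12237 of 14415 within 1.5-fold. The interval was narrowest for Wnt7b, at 0.902 to 1.04 times the Control level. It was widest for Wnt9a, at 0.788 to 1.18 times.

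Wnt5b, the leading ligand, was lowest in a Control library and highest in a Control library. Its CPM in the 5 BGN libraries, replicates 1 to 5, was 93.2, 96.1, 93.5, 103 and 96.9, and in the 5 Control libraries 104, 92.1, 89.0, 97.4 and 121. The BGN values all lay inside the Control range, with Control replicate 5 above every other library. The mean was 96.5 ± 3.93 CPM with biglycan and 101 ± 12.6 CPM without (SD, n = 5 each). Its log2 fold change was estimated at -0.060 ± 0.067 (SE), with a 95% interval from -0.20 to 0.081 (edgeR adjusted p = 0.975). Without Control replicate 5 the Control mean was 95.6 ± 6.62 CPM, and the estimate turned to 0.014. That library also had the lowest mitochondrial share of reads, 1.155% against 1.80% to 2.27% in the others, and the part of this in its Wnt5b level was not tested.

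Wnt5a, the close relative of Wnt5b, had the reverse extreme. Its CPM was 28.7, 27.4, 25.1, 27.8 and 27.7 in BGN and 29.2, 25.4, 27.8, 24.7 and 21.4 in Control. Control replicate 5 was the lowest of all 10 libraries, and the groups overlapped. The log2 fold change of 0.087 ± 0.072 (SE) had a 95% interval from -0.063 to 0.24 (edgeR adjusted p = 0.963). It was the only estimate above 0 among the 7, and it was 0.030 without Control replicate 5.

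The balance of the WNT5 pair stood apart in the same library. The ratio of Wnt5b to Wnt5a, each per kb, was 10.4 ± 0.571 in BGN and 11.8 ± 2.81 in Control. It reached 16.6 in Control replicate 5. Without that library the Control ratio was 10.6 ± 0.904, within the spread of the BGN ratio.

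**Figure D3:**
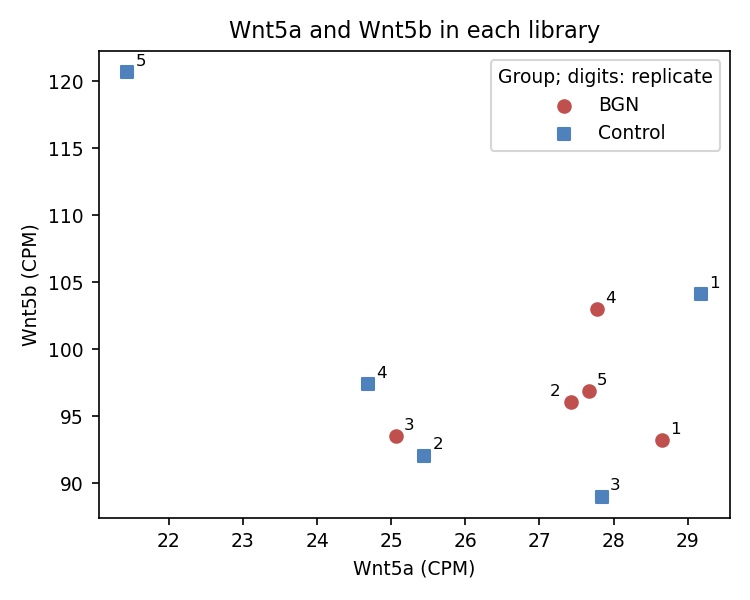
Wnt5a against Wnt5b in CPM, one point per library (circles BGN, squares Control; digits are replicate numbers). Control replicate 5 stands at 21.4 CPM for Wnt5a and 121 CPM for Wnt5b, and the other 9 libraries lie together.

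Wnt7b, a ligand known from ductal epithelium, had the lowest coefficient of variation of the 7 tested ligands. In BGN it stood at 55.2, 56.5, 53.9, 61.1 and 52.9 CPM, and in Control at 62.3, 55.9, 58.0, 56.1 and 55.8 CPM. The 2 groups overlapped, and no library stood apart. BGN replicates 1, 3 and 5 lay below every Control library, and Control replicate 1 lay above every BGN library. The log2 fold change was -0.043 ± 0.051 (SE; edgeR adjusted p = 0.975). Its coefficient of variation over the 10 libraries was 5.24%, where counting error alone gives 3.00%.

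Its closest relative, Wnt7a, known for patterning limb and female reproductive tract, was almost without reads. BGN replicate 5 had 2 reads, Control replicate 3 had 1, Control replicate 4 had 3, and the other 7 libraries had 0. The difference in mean CPM had a two-sided exact permutation p of 0.722. With 0 reads in 7 libraries many assignments tie, so this test could not have reached a p under 0.05. The sign of the difference rests on Control replicate 4, without which it turned from -0.023 to 0.0049 CPM. Among genes known to assist WNT7 signalling at the receptor, Reck was at 5.31 ± 0.430 CPM over the 10 libraries, and Adgra2 was below the filter with 4 to 14 reads per library.

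Wnt10a and Wnt10b, ligands of ectodermal organs that act through beta-catenin, were both expressed, with Wnt10a the higher per kb in every library. Wnt10a had 12.2, 14.0, 13.7, 14.4 and 14.4 CPM in BGN and 13.8, 13.3, 13.2, 15.2 and 13.6 CPM in Control. The group means, 13.8 ± 0.899 and 13.8 ± 0.797 CPM, nearly coincided (log2 fold change -0.0055 ± 0.077, SE; edgeR adjusted p = 0.996), and the sign turned without BGN replicate 1 (0.034) or Control replicate 4 (0.030). Wnt10b had 4.56, 4.65, 4.42, 5.01 and 5.01 CPM in BGN and 5.19, 6.02, 4.58, 4.45 and 5.32 CPM in Control. Control reached higher, but its replicates 3 and 4 lay inside the BGN range, and the log2 fold change was -0.11 ± 0.12 (SE; edgeR adjusted p = 0.974; -0.044 without Control replicate 2). For both genes the variation between libraries was no larger than counting error: coefficients of 5.82% and 10.2% against 6.09% and 10.2%. The ratio of Wnt10a to Wnt10b per kb was 4.01 ± 0.214 in BGN and 3.78 ± 0.614 in Control.

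Wnt6, the neighbour of Wnt10a and like it a ligand of embryonic ectoderm, was near the limit of detection. Reads in BGN were 5, 2, 5, 8 and 3, and in Control 5, 2, 2, 4 and 4. Each library had at least 2 reads, and the groups overlapped. BGN libraries had a mean of 0.229 ± 0.114 CPM and Control libraries one of 0.179 ± 0.0765 CPM (two-sided exact permutation p = 0.421).

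Wnt4, the ligand tied to progesterone action, did not differ between the groups beyond the spread of the replicates. It stood at 15.7, 16.1, 17.8, 18.0 and 17.9 CPM in BGN and at 17.4, 16.7, 16.8, 16.2 and 19.1 CPM in Control. The lowest library was BGN replicate 1 and the highest Control replicate 5. The log2 fold change was -0.011 ± 0.073 (SE; edgeR adjusted p = 0.994), and it turned to 0.028 without Control replicate 5, 0.019 without BGN replicate 1 and 0.0090 without BGN replicate 2. Hormone-sensing genes were present beside it: Prlr, the prolactin receptor, at 148 ± 12.6 and 138 ± 16.1 CPM, and Pgr, the progesterone receptor, at 18.6 ± 1.93 and 17.4 ± 2.77 CPM in BGN and Control. Of 5 tested genes of that list 0 passed. An unadjusted p under 0.05 was found for 1 of the 5 (4.81% of all genes tested), Foxa1 (edgeR unadjusted p = 0.0237, adjusted p = 0.945). Tnfsf11, which encodes RANKL, a progesterone-induced paracrine factor, was not tested, with 0 to 7 reads per library; it was picked after its values were seen.

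Wnt9a, known from joint and skeletal development, had the highest coefficient of variation of the 7 tested ligands. It had 6.59, 6.51, 5.74, 4.76 and 4.83 CPM in BGN and 5.19, 5.32, 7.88, 4.71 and 6.34 CPM in Control. Control replicate 3 was highest and Control replicate 4 lowest, so the BGN range lay inside that of Control. The log2 fold change was -0.051 ± 0.14 (SE; edgeR adjusted p = 0.987), and its sign turned without Control replicate 3 (0.075), BGN replicate 4 (0.0083) or BGN replicate 5 (0.0061). Its coefficient of variation was 17.8%, against 9.41% from counting error.

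Wnt3a, the standard beta-catenin-type ligand, had 0 reads in all 10 libraries. A count of 0 allows up to 3 reads in a library, or about 0.153 CPM at these depths, counting error only. No fold is given for it.

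**Figure D4:**
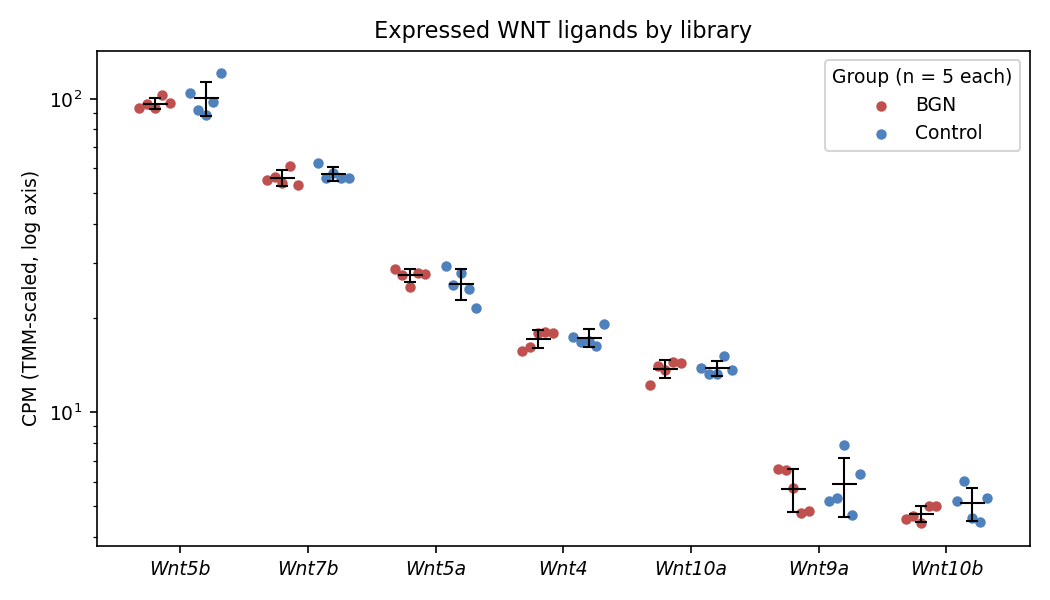
CPM (log axis) of the 7 tested WNT ligands in each library, BGN in red and Control in blue, 5 libraries each, with the mean and SD in black; within a group, replicates 1 to 5 run from left to right. The groups overlap for every ligand, and Control replicate 5 is the highest library for Wnt5b and the lowest for Wnt5a.

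Genes for the acylation and release of WNT proteins were expressed in every library. Wls, which encodes the carrier Wntless, stood at 29.9 ± 0.766 CPM per kb over the 10 libraries, and Porcn, the acyltransferase gene, at 3.81 ± 0.336 CPM per kb; Porcn was picked for its role after its values were seen. With biglycan Wls was at 267 ± 5.11 CPM and without it at 260 ± 6.60 CPM, with an edgeR adjusted p of 0.967 for a log2 fold change of 0.039. The retromer gene Vps35 and the p24 family genes Tmed10 and Tmed2 had log2 fold changes of 0.019, -0.00070 and 0.012. All 9 genes of this list were tested: 6 lay above and 3 below 0, 0 passed, and the median was 0.015.

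With annotated exon as the length, receptors for these ligands were led by Fzd7, a Frizzled gene, at 64.5 ± 2.12 CPM per kb. The other leading members of the Frizzled and LRP list were Fzd6 at 36.2 ± 1.64, Lrp6 at 21.9 ± 0.743 and Lrp5 at 20.1 ± 1.48 CPM per kb. Of 11 tested genes 8 lay above and 3 below 0, 0 passed, and the median log2 fold change was 0.035. An unadjusted p under 0.05 was found for 2 of the 11 (4.81% of all genes tested), Fzd6 and Fzd5, and the groups did not overlap for 1 (0.728% of all genes tested), Fzd6. Fzd6 had 177, 180, 182, 181 and 184 CPM in BGN and 167, 170, 170, 176 and 159 CPM in Control, so the lowest BGN library lay just above the highest Control library. Its log2 fold change was 0.10 ± 0.038 (SE; edgeR unadjusted p = 0.0147, adjusted p = 0.945), and that of Fzd5, which was picked after its values were seen, was 0.15 ± 0.074 with overlapping groups (edgeR unadjusted p = 0.0498, adjusted p = 0.945). Among receptors linked to WNT5 signalling, Ryk, Ptk7 and Ror1 were at 41.0 ± 1.01, 38.7 ± 1.79 and 10.6 ± 0.742 CPM per kb, while Ror2 had 3 to 9 reads per library and was not tested. Of those 3 tested genes 0 passed. The order of receptors depends on the length used. Ryk has 4534 exon bases but a longest coding transcript of 2852, while Fzd7 has 4532 for both. With the longest transcript as the length, Ryk would stand above Fzd7.

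Several secreted antagonists were expressed. Sostdc1 stood at 35.6 ± 2.47, Sfrp1 at 26.0 ± 1.73, Dkk3 at 10.1 ± 0.818 and Wif1 at 2.88 ± 0.553 CPM per kb. Of 14 listed antagonists and ligand-inactivating enzymes 7 were tested, 4 above and 3 below 0, and 0 passed. Dkk1, Dkk4 and Sost had 0 reads. Of the R-spondins, which amplify WNT signalling, 0 of 4 could be tested, and Rspo2 and Rspo4 had 0 reads. Of 12 feedback and target genes of beta-catenin 9 were tested, 5 above and 4 below 0, with 0 passing and a median log2 fold change of 0.0031; those with the highest CPM were Ccnd1, Nkd2, Myc and Lgr5.

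Genes with the most similar profile over the 10 libraries were sought for the 3 ligands with the highest CPM, among 11964 genes with 50 or more counts on average. For Wnt5b these were Trip6, Irx3 and Trim47 (Pearson r of log2 CPM 0.971, 0.952 and 0.951, n = 10; 0.902, 0.854 and 0.836 over the 9 libraries without Control replicate 5). For Wnt7b they were Gstt1, Gnb2 and Gnai2 (0.932, 0.898 and 0.891; 0.937, 0.906 and 0.908 without that library). For Wnt5a they were Rbm3-ps, Cops5 and Gm10132 (0.976, 0.956 and 0.915; 0.939, 0.900 and 0.800). These are the highest of many correlations over few libraries and describe them only.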

How the data were processed

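Poly-A selected RNA from 10 samples was sequenced. The deposited file gives raw read counts by gene symbol for each sample. The tools cutadapt 1.9.1, FastQC, HTSeq, HISAT2 2.2.1 and DESeq2 are listed in the submitters' processing notes with the build GRCm39; the annotation release is not given in the sources used here. Sample titles gave the groups and replicate numbers.

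After filterByExpr and TMM scaling, edgeR 4.0.16 (R 4.3.3) fitted treatment alone in its robust quasi-likelihood test, with p-values of 14415 genes adjusted by Benjamini-Hochberg. SEs and 95% intervals come from the F statistic. CPM are TMM-scaled. Ligands below the filter were compared by exact permutation of CPM. Lengths are the summed exon bases of each gene in GENCODE M21 (GRCm38), another build than that of the counts, matched by symbol for 128 of 128 listed genes. Libraries were compared in pairs: chi-square per degree of freedom was at least 2.43, so none was taken for a repeat. The fit was tested on simulated data. All 10 ligands and the other 9 WNT genes were named, with up to 4 tested genes of highest CPM in each other list. The 3 genes of most similar profile were named for the 3 ligands of highest CPM, not divided by length. The members and lists were chosen with earlier results of these data known. Alternatives were other scalings, filters, DESeq2 1.42.0, limma-voom (limma 3.58.1), no robust estimation, other thresholds, the replicate number as a block, and leaving out libraries.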

Additional observations from a re-analysis of the deposited data

Results flagged for a closer look

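In BGN, Wnt7a had a CPM of 0.0912 in replicate 5 and 0 in the other 4 libraries, so that this library lay farther from the rest than the limit for 5 samples. The value stands for 2 reads. With 0 reads in the other 4 libraries any read in the remaining one is marked in this way, so the mark says nothing beyond those 2 reads. Of 18 sets of 5 libraries examined this was the only one marked.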

How the results depend on the processing

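No ligand passed the threshold under any setting tried, with adjusted p-values of at least 0.734 for the 7 tested ligands. Over all genes, 0 were called in each direction except without the filter on low counts, where 1 was called higher and 2 lower in BGN, none of them among the 10 ligands; there Wnt6 and Wnt7a had adjusted p-values of 0.924 and 0.878 (edgeR). With the replicate block the counts were 0 higher and 0 lower, and the samples share only a number: same-numbered deviations correlated at -0.0198 to 0.201, and 1 of 5 BGN libraries correlated best with its own number. With replicate 5 of both groups left out, the signs of Wnt4 (0.012), Wnt5b (0.014) and Wnt9a (0.034) turned; the alternative has fewer samples. Leaving out single libraries gave log2 fold changes from -0.033 to 0.028 for Wnt4, 0.030 to 0.14 for Wnt5a, -0.10 to 0.014 for Wnt5b, -0.076 to -0.014 for Wnt7b, -0.12 to 0.075 for Wnt9a, -0.022 to 0.034 for Wnt10a and -0.16 to -0.044 for Wnt10b, and CPM differences from 0.0079 to 0.080 for Wnt6 and -0.042 to 0.0049 for Wnt7a. The other scalings, filters, tools and the block turned no sign of the 7 tested ligands. Depth limits Wnt3a, Wnt6 and Wnt7a, whose differences were not detectable at these counts.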
